A study of Mus musculus with 5 samples.

Results

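The mitochondrial ribosomal protein genes of mouse thymocytes are described here, taken as every gene whose symbol begins with Mrpl or Mrps followed by a digit, with pseudogene rows left out. The rule found 77 of 35976 genes in the deposited tables, of which 48 belong by symbol to the large subunit (Mrpl) and 29 to the small subunit (Mrps). The data were bulk RNA-seq of sorted mature CD8 single-positive thymocytes, the last stage of the killer T cell lineage before cells leave the thymus. The tested genotype was Runx3 +/WRPW (n = 3 libraries), which carries a WRPW allele of Runx3 beside a normal allele, and its comparator was Runx3 +/+ (n = 2). Each mouse sample therefore kept at least 1 normal Runx3 allele, and no treatment is named for either genotype. The labels name neither strain, age nor separate animals, so p-values measure the spread between libraries, which may be technical.

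Mitochondria carry their own ribosome, which translates the few proteins encoded in mitochondrial DNA, all of them parts of the respiratory chain and the ATP synthase. Its RNAs come from mitochondrial DNA, whereas all its proteins are made from nuclear genes, translated in the cytosol and imported. The particle descends from a bacterial ribosome, has lost much of the RNA and has gained proteins with no bacterial counterpart. Activated T cells enlarge their mitochondria and need mitochondrial translation to proliferate and to act as effectors. Runx3 is a transcription factor of the CD8 lineage. The last residues of Runx proteins, VWRPY, are a docking site for corepressors of the Groucho/TLE family, and Hes repressors end in the related motif WRPW.

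The libraries held 15715242 to 43758550 counts, and every mitochondrial ribosomal protein gene passed the filter on low counts in the 13666 genes tested. The least abundant of these genes in each library still had 75 to 180 counts. Runx3 itself had 394, 337 and 422 CPM in Runx3 +/WRPW and 273 and 357 CPM in Runx3 +/+ (CPM, counts scaled by library size and TMM factors), and it was not called at log2 0.29 ± 0.1421 (SE; edgeR quasi-likelihood test, adjusted p = 0.234). These counts do not tell the alleles apart. The CD8 lineage markers Cd3e, Cd3d, Cd8a and Cd8b1 summed to 4140 to 4690 CPM in Runx3 +/WRPW and 4860 to 4880 CPM in Runx3 +/+. The CD4, double-positive thymocyte, B cell, myeloid, erythroid, epithelial and natural killer lists each stayed at or below 13.2 CPM. The double-positive list summed to 2.83 to 5.66 CPM in Runx3 +/WRPW and 12 to 13.2 CPM in Runx3 +/+. Of its 2 markers tested, Dntt was called lower (edgeR, log2 -1.84, adjusted p = 0.028). The other went the other way, at log2 0.55, and was not called. Cd3d of the CD8 list was also called lower (edgeR, log2 -0.30, adjusted p = 0.039). Markers of dividing cells (Mki67, Top2a, Rrm2 and Ccnb1) summed to 72.5 to 77.7 CPM in Runx3 +/WRPW and 528 to 563 CPM in Runx3 +/+, and all 4 were called lower. The part of dividing or less mature cells in the values that follow was not tested, and in bulk RNA fewer cells of a kind cannot be told apart from less RNA per cell. Runx3 +/WRPW library 2 had counts for 27414 genes, against 17237 to 18967 in the other libraries, and results are also given without it.

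The mitochondrial ribosomal protein genes as a group kept close to equal levels in the 2 genotypes. Of the 77 genes, 1 was called higher (Mrpl27) and 1 was called lower (Mrpl33) in Runx3 +/WRPW at an adjusted p under 0.05, which is 2.6% of the group. Among all genes tested 13.6% were called, 6.24% higher and 7.33% lower, and among the 6479 genes within the same range of mean level 16.4% were called. At an unadjusted p under 0.05 the group had 11 genes (14.3%), 2 higher and 9 lower, where all genes tested had 29.8%. The median log2 fold change of the group was -0.02, with an interquartile range of -0.17 to 0.06, where all genes tested had a median of 0.02 and an interquartile range of -0.17 to 0.29. The interval of the fold change also bounds the group. It lay wholly within 1.5-fold in either direction for 70 of 77 genes (90.9%), against 50.8% of all genes tested and 61.6% of those in the same range of level. The fitted fold change itself was under 1.25-fold for 71 of 77 genes (92.2%), against 62.3% of all genes tested. The median coefficient of variation between libraries was 5.71% in Runx3 +/WRPW and 5.02% in Runx3 +/+ for these genes, where genes in the same range of level had 7.3% and 7.17%.

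**Figure D1:**
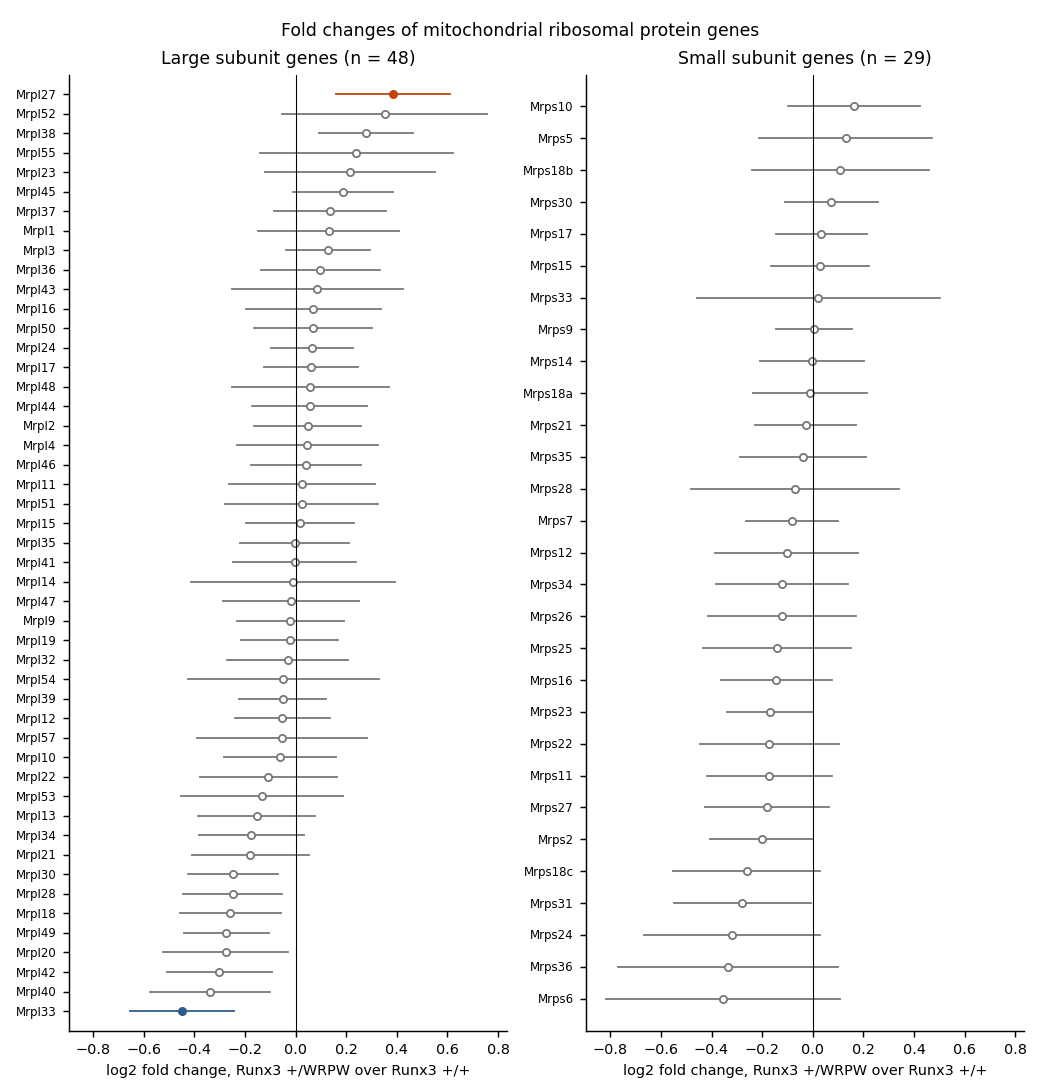
Fitted log2 fold change (x axis, Runx3 +/WRPW over Runx3 +/+) of each mitochondrial ribosomal protein gene, 48 of the large subunit on the left and 29 of the small subunit on the right, with 95% intervals as bars. Filled points are the genes called, Mrpl27 at 0.39 and Mrpl33 at -0.45; every other interval belongs to a gene that was not called.

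The upstream sequences of 3 large subunit genes are shown because these genes are the called pair (Mrpl33 and Mrpl27) and the most abundant member per length (Mrpl30). Each line gives the 250 bases before a RefSeq start of the gene in GRCm38.p6, all on the plus strand. The stretches are chr5:31613701-31613950 for Mrpl33, chr11:94653541-94653790 for Mrpl27 and chr1:37890227-37890476 for Mrpl30. The gene span of Mrpl27 begins before the start used here, at 94653770, so the last bases shown lie within that span. Capitals mark matches on either strand to CCGGAAG, a core bound by ETS factors such as GABP, or to GCGCANGCG, the core of the site of nuclear respiratory factor NRF1.
Mrpl33: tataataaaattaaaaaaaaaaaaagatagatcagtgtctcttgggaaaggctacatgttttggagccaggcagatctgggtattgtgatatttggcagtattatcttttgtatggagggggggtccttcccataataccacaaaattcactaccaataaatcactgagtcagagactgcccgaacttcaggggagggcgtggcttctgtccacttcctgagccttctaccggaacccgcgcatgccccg
Mrpl27: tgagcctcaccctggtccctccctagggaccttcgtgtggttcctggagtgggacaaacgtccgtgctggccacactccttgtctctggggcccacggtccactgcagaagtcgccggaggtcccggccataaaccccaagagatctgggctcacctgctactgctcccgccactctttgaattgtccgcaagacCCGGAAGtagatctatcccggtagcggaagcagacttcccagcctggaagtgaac
Mrpl30: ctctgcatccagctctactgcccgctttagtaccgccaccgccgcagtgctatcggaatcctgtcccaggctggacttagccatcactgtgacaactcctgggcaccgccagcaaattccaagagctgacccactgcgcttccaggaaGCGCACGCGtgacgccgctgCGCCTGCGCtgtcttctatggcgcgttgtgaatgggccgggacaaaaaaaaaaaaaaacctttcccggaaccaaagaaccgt
Mrpl27 has an ETS core and Mrpl30 has a pair of NRF1 cores in the stretch shown, whereas the ETS core of Mrpl33 begins 3 bases before the start and so runs past the last base shown.

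RefSeq start windows, from 250 bases before to 50 bases after the start, matched 68 of the 77 genes. The ETS core CCGGAAG, on either strand, was found in 24 of 68 windows (35.3%), against 18.4% of the windows of tested genes and 9.5% of all 23923 windows. GCGCANGCG was found in 16 (23.5%), against 13.8% and 6.91%. ATGGCGG, the core of the YY1 site, was found in 13 (19.1%), against 8.31% and 4.36%. GABP, NRF1 and YY1 are the factors best known for acting on nuclear genes of mitochondria. CACGTG, the E-box that Myc can bind, was found in 5 windows (7.35%), against 10.2% and 7.47%. TGTGGT or TGCGGT, the core that Runx proteins bind, was found in 17 windows (25%), against 21.4% and 22.3%, and TATAAA in 4 (5.88%), against 6.8% and 14%. Matches could overlap, the median GC content of the windows was 58.2% for these genes, 60.3% for tested genes and 53.3% for all, and a match is a description of letters and not a bound site.

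Large subunit genes showed no shift in their median, although both called genes were among them. Of the 48, 1 was called higher and 1 lower (4.17%), and 25 (52.1%) had a negative log2 fold change, where 46.8% of all genes tested did. At an unadjusted p under 0.05 in edgeR the large subunit had 10 genes (20.8%, against 29.8% of all genes tested), 2 higher and 8 lower. Its median log2 fold change was 0.00 with TMM factors and 0.03 with upper-quartile factors. The most different member downward was Mrpl33, a small protein of the large subunit with a bacterial counterpart.

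Mrpl33 (chr5:31613951-31622644 in mm10, plus strand) had 22.9, 21.4 and 21.4 CPM in the Runx3 +/WRPW libraries and 30.8 and 29.3 CPM in the Runx3 +/+ libraries. All 3 Runx3 +/WRPW libraries were below both Runx3 +/+ libraries. It was called 1.36-fold lower at log2 -0.45 ± 0.085 (SE; 95% interval -0.66 to -0.24; edgeR, adjusted p = 0.0232). The call was lost in each fit that left out 1 library, with adjusted p of 0.0548 to 0.116 and the direction kept. Its exons share 107 bases with Gm43809 on the same strand, so reads there could have been split or left out.

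Mrpl27 (chr11:94653770-94661932, plus strand), a protein of the central protuberance of the large subunit with a bacterial counterpart, had 22.5, 23.6 and 22.1 CPM in Runx3 +/WRPW and 17.8 and 17.1 CPM in Runx3 +/+. Here the Runx3 +/WRPW libraries were all the higher ones. It was called 1.31-fold higher at log2 0.39 ± 0.0927 (SE; 95% interval 0.16 to 0.61; adjusted p = 0.0447). This call too was lost without any 1 library, at adjusted p of 0.0977 to 0.202, and without the filter on low counts, at 0.0674. Mrpl27 shares 75 exonic bases with Eme1, a DNA repair nuclease subunit on the opposite strand, which was lower at log2 -1.07 ± 0.194 (adjusted p = 0.02). The strand setting of the counting is not given in the sources used here.

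Other large subunit genes, some picked after their values were seen, did not pass the threshold in the main edgeR fit. Mrpl49 was called by DESeq2 and by edgeR with at least 1 CPM required in every library of a genotype. Mrpl38 was called with upper-quartile factors. Mrpl49 had 35.4, 32.9 and 33.6 CPM in Runx3 +/WRPW and 41.6 and 40.9 CPM in Runx3 +/+ (log2 -0.27 ± 0.069, adjusted p = 0.0508). Mrpl38, a protein of the central protuberance, had 39.0, 37.3 and 38.2 CPM in Runx3 +/WRPW and 30.1 and 33.2 CPM in Runx3 +/+ (log2 0.28 ± 0.0764, adjusted p = 0.0649). In both the genotypes did not overlap, with Mrpl49 at the lower side and Mrpl38 at the higher side. Mrpl42 had 22.4, 23.2 and 22.8 CPM in Runx3 +/WRPW and 27.1 and 29.2 CPM in Runx3 +/+ (log2 -0.30 ± 0.0856, adjusted p = 0.0711). Mrpl40 had 20.7, 18.8 and 20.8 CPM in Runx3 +/WRPW and 24.3 and 26.8 CPM in Runx3 +/+ (log2 -0.34 ± 0.0977, adjusted p = 0.0741). Both are proteins without a bacterial counterpart, and their Runx3 +/WRPW libraries were all below the Runx3 +/+ ones. Mrpl52 had 18.5, 25.7 and 22.0 CPM in Runx3 +/WRPW and 15.9 and 18.7 CPM in Runx3 +/+, so the groups overlapped, and its log2 difference of 0.35 ± 0.1669 had an adjusted p of 0.223.

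**Figure D2:**
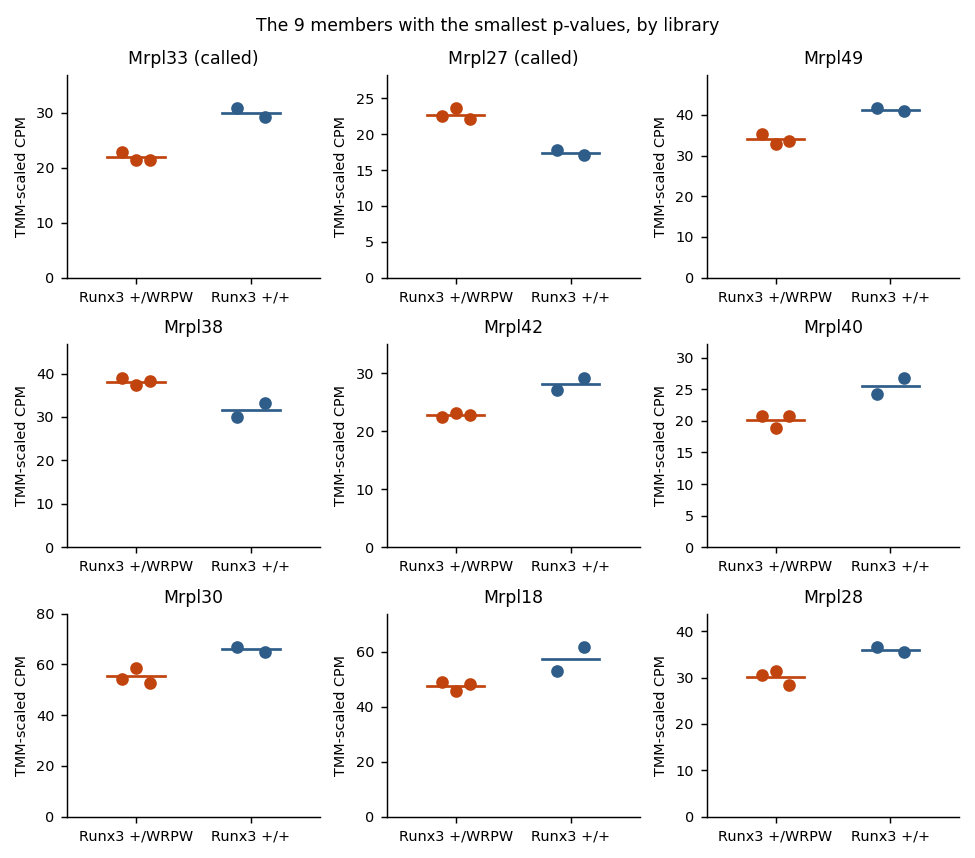
TMM-scaled CPM (y axes, from 0) of the 9 mitochondrial ribosomal protein genes with the smallest p-values, by library, with Runx3 +/WRPW (n = 3) left of Runx3 +/+ (n = 2) and bars at the means. Mrpl33 sits between 21.4 and 22.9 in Runx3 +/WRPW, below 29.3 and 30.8 in Runx3 +/+, and only Mrpl33 and Mrpl27 were called.

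Within the large subunit the values were also read by place in the particle, with groupings made after the values were seen. The groups hold only the genes listed and may leave out others of the same place. The stalk proteins Mrpl10, Mrpl11, Mrpl12, Mrpl53 and Mrpl54, where translation factors dock, had a median log2 fold change of -0.05, and all 5 had overlapping libraries. Mrpl12 for example had 37.5, 34.9 and 37.2 CPM in Runx3 +/WRPW and 39.9 and 36.3 CPM in Runx3 +/+. Among 7 proteins assigned to the polypeptide exit tunnel (Mrpl17, Mrpl22, Mrpl23, Mrpl24, Mrpl39, Mrpl44 and Mrpl45) none was called. Their log2 fold changes ran from -0.11 to 0.21. Mrpl45, which tethers the ribosome to the inner membrane, had 27.9, 27.2 and 26.7 CPM in Runx3 +/WRPW and 23.7 and 24.5 CPM in Runx3 +/+, without overlap. The 7 proteins of the central protuberance (Mrpl18, Mrpl27, Mrpl38, Mrpl40, Mrpl46, Mrpl48 and Mrpl55) had the widest span of these groups, from -0.34 for Mrpl40 to 0.39 for Mrpl27, and 1 of them was called (14.3%, against 13.6% of all genes tested). Proteins with a bacterial counterpart (46 genes, 2 called) and those without (30 genes, 0 called) both had a median log2 fold change of -0.02.

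No small subunit gene was called, where 13.6% of all genes tested were. A negative log2 fold change was found in 21 of 29 (72.4%), against 46.8% of all genes tested. The count of calls was 0 with edgeR, DESeq2 and limma-voom, and 1 gene (Mrps31, lower) had an unadjusted p under 0.05 in edgeR. The median log2 fold change was -0.10, and it was negative with each scaling tried (-0.07 with upper-quartile factors) and without any 1 library, where it was nearest to 0 without Runx3 +/+ library 2 (-0.05) and next without Runx3 +/WRPW library 2 (-0.07). Mrps31 had 14.0, 14.5 and 16.4 CPM in Runx3 +/WRPW and 18.6 and 17.7 CPM in Runx3 +/+ (log2 -0.28 ± 0.1116, adjusted p = 0.159). The largest differences by size in the small subunit belonged to genes with wide spread. Mrps6 had 17.4, 13.7 and 20.7 CPM in Runx3 +/WRPW and 19.6 and 24.6 CPM in Runx3 +/+, which overlap, with log2 -0.35 ± 0.1902 and a 95% interval of -0.82 to 0.11. Mrps24 had 27.1, 27.9 and 25.4 CPM in Runx3 +/WRPW and 38.8 and 28.4 CPM in Runx3 +/+, where 1 Runx3 +/+ library stood apart (log2 -0.32 ± 0.1431, adjusted p = 0.2). Mrps36 had 5.37, 4.61 and 4.46 CPM in Runx3 +/WRPW and 5.83 and 6.39 CPM in Runx3 +/+ (log2 -0.34 ± 0.1786, adjusted p = 0.272). Its protein is known in structures as a part of the 2-oxoglutarate dehydrogenase complex rather than of the ribosome. Mrps6 shares exonic bases with Slc5a3 and Gm49711, so its count is uncertain.

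The libraries of the genotypes did not overlap for 30 of the 77 genes. In the small subunit all Runx3 +/WRPW libraries were the lower ones for 12 of 29 genes (41.4%) and the higher ones for 1 (3.45%, Mrps10). In the large subunit they were lower for 12 of 48 (25%) and higher for 5 (10.4%). Over all genes tested they were lower for 24.2% and higher for 24.1%. Mrps24 and Mrps36 were among the 12, beside genes with smaller differences. Mrps2, which has a bacterial counterpart, had 27.9, 25 and 25.8 CPM in Runx3 +/WRPW and 30.2 and 30.4 CPM in Runx3 +/+. Mrps10 had 17.6, 18.6 and 16.4 CPM in Runx3 +/WRPW and 16.1 and 15.3 CPM in Runx3 +/+. With subunits set by structure, which moves Mrps18a and Mrps30 to the large subunit and drops Mrps36, 19 of 26 small subunit genes had a negative log2 fold change, with a median of -0.11, and the large subunit median stayed at 0.00.

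The summed level of each subunit differed by a few percent. The small subunit genes summed to 699.7, 677.7 and 698.8 CPM in Runx3 +/WRPW (692.1 ± 12.5, SD, n = 3) and to 726.6 and 744.4 CPM in Runx3 +/+ (735.5 ± 12.6, SD, n = 2), a ratio of 0.941. All 3 Runx3 +/WRPW sums were the lower ones. The large subunit genes summed to 1350, 1374 and 1320 CPM in Runx3 +/WRPW (1348 ± 26.9) and to 1377 and 1387 CPM in Runx3 +/+ (1382 ± 7.46), a ratio of 0.975. Here the highest Runx3 +/WRPW sum came within 3 CPM of the lower Runx3 +/+ sum. With CPM by total count instead of TMM factors the ratios were 1.00 for the large and 0.964 for the small subunit, so the lower large subunit sum rests on the scaling.

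The ratio of large to small subunit sums does not depend on the scaling. It was 1.93, 2.03 and 1.89 in the Runx3 +/WRPW libraries (1.95 ± 0.0709) and 1.89 and 1.86 in the Runx3 +/+ libraries (1.88 ± 0.022). The difference was within the spread of the Runx3 +/WRPW libraries, and the highest value was that of library 2, the one with more genes detected. No test was made on these sums, and 3 against 2 libraries cannot reach a one-sided exact permutation p below 0.1. The counts of all 77 genes took 0.201% to 0.212% of each library.

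**Figure D3:**
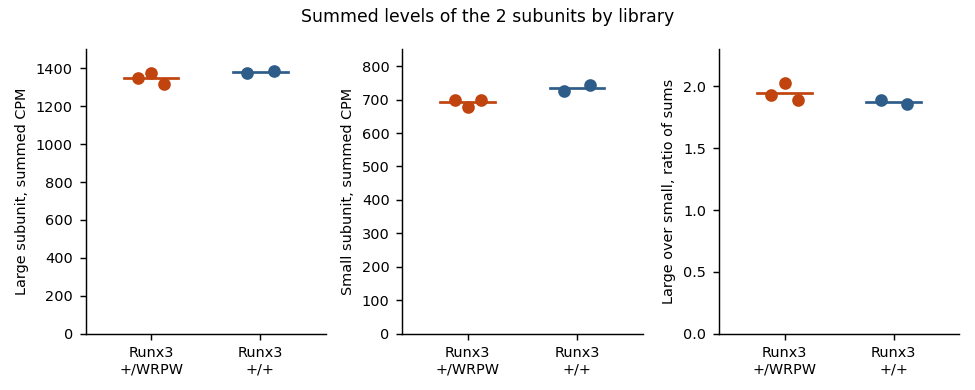
Summed TMM-scaled CPM of the large subunit genes and of the small subunit genes, and the ratio of the sums (y axes, from 0), by library, with Runx3 +/WRPW (n = 3) left of Runx3 +/+ (n = 2) and bars at the means. The small subunit sums lie at 677.7 to 699.7 in Runx3 +/WRPW, below 726.6 and 744.4 in Runx3 +/+, and the ratios of the genotypes meet near 1.89.

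Levels within the ribosome varied far more between genes than between genotypes. Per kilobase of exon, large subunit genes ran from 2.09 to 56.8 CPM with a median of 19.2 in Runx3 +/WRPW and from 2.01 to 67.8 with a median of 20.5 in Runx3 +/+. Small subunit genes ran from 2.94 to 49.0 with a median of 11.1 in Runx3 +/WRPW and from 2.9 to 50.1 with a median of 12.6 in Runx3 +/+. The most abundant large subunit gene thus exceeded the least abundant many times over in either genotype, where the called genes differed by 1.36-fold and 1.31-fold between genotypes.

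The 5 highest per length, averaged over all libraries, were Mrpl30, Mrpl33, Mrps21, Mrps15 and Mrpl18, all with bacterial counterparts. In Runx3 +/WRPW alone, Mrpl52, which has none, averaged 44.9 ± 7.3 CPM per kb and ranked above Mrps15 and Mrpl18. Mrpl30 averaged 56.8 ± 3.22 CPM per kb in Runx3 +/WRPW and 67.8 ± 1.2 in Runx3 +/+ (SD, n = 3 and 2). In CPM its libraries stood at 54.3, 58.8 and 52.7 in Runx3 +/WRPW and at 66.7 and 65.1 in Runx3 +/+, without overlap, and it missed the threshold in edgeR (log2 -0.25 ± 0.0727, adjusted p = 0.0771) but was called by DESeq2. Mrpl18, a protein of the central protuberance, averaged 39.1 ± 1.39 CPM per kb in Runx3 +/WRPW and 47.0 ± 4.95 in Runx3 +/+ (adjusted p = 0.0939). Mrpl30 and Mrpl18 thus lay on the lower side beside Mrpl33, at 45.8 ± 1.79 CPM per kb in Runx3 +/WRPW and 62.9 ± 2.19 in Runx3 +/+. The high small subunit genes showed no such gap. Mrps21 averaged 49.0 ± 1.4 CPM per kb in Runx3 +/WRPW and 50.1 ± 0.707 in Runx3 +/+, and Mrps15 averaged 42.8 ± 2.57 in Runx3 +/WRPW and 42.0 ± 0.354 in Runx3 +/+, each within its own spread. In Runx3 +/WRPW the order of Mrpl33, Mrps21 and Mrps15 is set by differences near the spread of the libraries.

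The lowest 3 per length were Mrpl48, Mrps33 and Mrps25, none of which has a bacterial counterpart. Mrpl48 averaged 2.09 ± 0.0854 CPM per kb in Runx3 +/WRPW and 2.01 ± 0.198 in Runx3 +/+. Mrps33 averaged 2.94 ± 0.236 in Runx3 +/WRPW and 2.90 ± 0.0212 in Runx3 +/+. Mrps25 averaged 3.08 ± 0.363 in Runx3 +/WRPW and 3.42 ± 0.0636 in Runx3 +/+. These genes were thus low per length in both genotypes. Of the 6073 exonic bases of Mrps25, 3533 are shared with Nr2c2 on the opposite strand, so its value is uncertain. The lengths are unions of annotated exons, so a long exon seldom used in thymocytes lowers a gene's value per length.

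**Figure D4:**
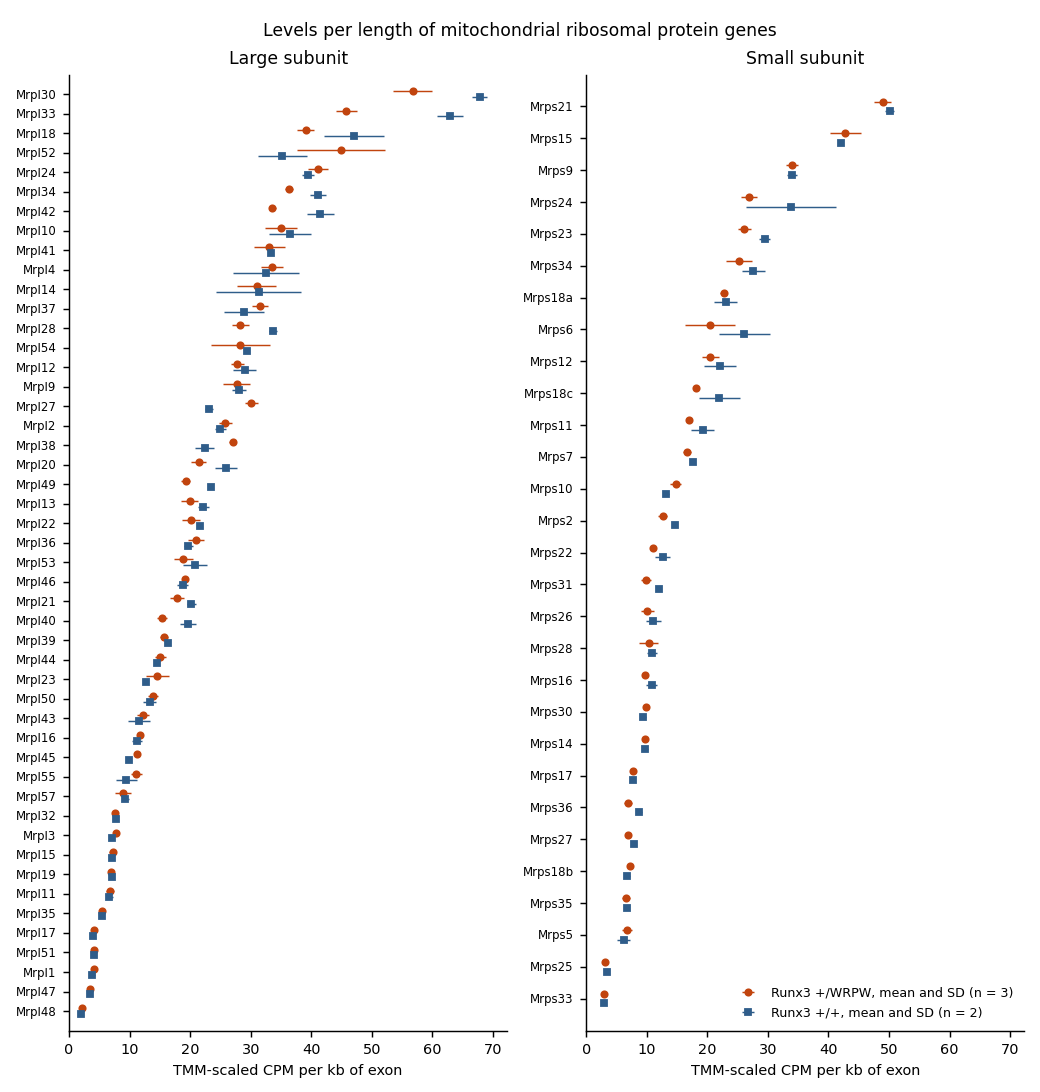
TMM-scaled CPM per kilobase of exon (x axes) of each large subunit and small subunit gene, as mean and SD of Runx3 +/WRPW (n = 3) and of Runx3 +/+ (n = 2). Mrpl30 is highest at 56.8 in Runx3 +/WRPW and 67.8 in Runx3 +/+, and Mrpl48 is lowest at 2.09 and 2.01.

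The genes that work with the mitochondrial ribosome were called in a smaller share than all genes when the lists were pooled, and their difference from the Mrpl and Mrps genes was not tested. Of 97 tested genes in 6 lists, 7 were called (7.22%), 5 higher and 2 lower, where 13.6% of all genes tested were called. Mitoribosome proteins with other symbols had 1 of 7 called (Dap3, lower) and a median log2 fold change of -0.18. Assembly and rRNA modification factors had 0 of 24 called in edgeR (3 at an unadjusted p under 0.05, median 0.05), while upper-quartile factors added Eral1. Translation factors, a list that also held Letm1, Oxa1l and Lrpprc, had 0 of 16 called in edgeR (median 0.04). These 3 are not translation factors in the strict sense. Of the 4 at an unadjusted p under 0.05, Mtif2 and Mrrf were higher and Letm1 and Oxa1l lower. DESeq2 called Letm1 and Mrrf. The list of aminoacyl-tRNA synthetases, which charge the mitochondrial tRNAs, also held the amidotransferase subunits Qrsl1, Gatb and Gatc. It had 2 of 20 called, both higher, with a positive log2 fold change in 18 of 20 and a median of 0.07.

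Dap3, the small subunit protein also known as mS29, had 58.8, 56.9 and 53.6 CPM in Runx3 +/WRPW and 72.4 and 102 CPM in Runx3 +/+. The Runx3 +/+ libraries stood far apart from each other. It was called lower at log2 -0.62 ± 0.1412 (adjusted p = 0.0386), and among the fits that left out 1 library the call stayed only without Runx3 +/+ library 1 (log2 -0.88). Without Runx3 +/+ library 2 the log2 fold change was -0.36, and the call also ended with no filter on low counts (adjusted p = 0.0589). Ict1, a peptide release factor built into the large subunit (Mrpl58), had a log2 fold change of -0.26 (adjusted p = 0.0747).

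Mars2, the mitochondrial methionyl-tRNA synthetase, had 25.9, 26.6 and 27.7 CPM in Runx3 +/WRPW and 18.9 and 20.1 CPM in Runx3 +/+ (log2 0.46 ± 0.0896, adjusted p = 0.0251). Ears2, the glutamyl-tRNA synthetase, had 28.8, 33.6 and 32.7 CPM in Runx3 +/WRPW and 21.0 and 24.8 CPM in Runx3 +/+ (log2 0.47 ± 0.118, adjusted p = 0.0495). Both were higher in all 3 Runx3 +/WRPW libraries. Neither stayed called without any 1 library, and the Ears2 call also ended with RLE factors (adjusted p = 0.0506), limma-voom (0.0578) and no filter on low counts (0.075).

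The list of mitochondrial biogenesis regulators had 4 of 18 called (22.2%, against 13.6% of all genes tested), with a median log2 fold change of -0.02. The 3 higher were Ppargc1b, Max and Peo1, and the 1 lower was Polg. Peo1 and Polg are enzymes of mitochondrial DNA rather than regulators. Ppargc1b, which encodes the coactivator PGC-1β, had 76.0, 81.5 and 84.5 CPM in Runx3 +/WRPW and 42.4 and 49.1 CPM in Runx3 +/+. It was 1.77-fold higher in Runx3 +/WRPW (log2 0.82 ± 0.0896, adjusted p = 0.00426), and it stayed called in each fit that left out 1 library but that without Runx3 +/+ library 1 (adjusted p = 0.0553). Max, the partner of Myc, had 186, 183 and 192 CPM in Runx3 +/WRPW and 145 and 138 CPM in Runx3 +/+ (log2 0.41 ± 0.0595, adjusted p = 0.0105), and its call was lost without Runx3 +/WRPW library 1 and without either Runx3 +/+ library. Myc itself, with 223, 199 and 203 CPM in Runx3 +/WRPW and 182 and 163 CPM in Runx3 +/+, was not called in edgeR (log2 0.28, adjusted p = 0.0814). Of the other factors whose cores were counted in the start windows, NRF1, GABP and YY1 had no gene that passed the threshold in edgeR. The log2 fold changes were -0.09 for Nrf1, -0.08 for Gabpa, -0.28 for Gabpb1 and -0.23 for Yy1. DESeq2 called Myc and Yy1.

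Peo1, the helicase of mitochondrial DNA, had 45.8, 49.8 and 49.6 CPM in Runx3 +/WRPW and 34.4 and 36.2 CPM in Runx3 +/+ (log2 0.46 ± 0.0748, adjusted p = 0.0146). It stayed called only without Runx3 +/WRPW library 1 or library 2, among the fits that left out 1 library. Its exons share 385 bases with Mrpl43 on the opposite strand, whose log2 fold change was 0.09 (adjusted p = 0.738). Polg, the polymerase of mitochondrial DNA, had 56.1, 65.6 and 47.3 CPM in Runx3 +/WRPW and 94.9 and 127 CPM in Runx3 +/+. It was 1.97-fold lower in Runx3 +/WRPW (log2 -0.98 ± 0.1723, adjusted p = 0.0188), a call that stayed without Runx3 +/WRPW library 2 or library 3 and was lost without any other library. Polg shares 665 exonic bases with Fanci on the opposite strand, whose log2 fold change was -0.35 (adjusted p = 0.253).

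The RNAs that the mitochondrial ribosome translates did not pass the threshold. Of the 13 protein-coding genes of mitochondrial DNA, 12 were tested and none was called in edgeR, with a median log2 fold change of 0.01. An unadjusted p under 0.05 was found for 2, COX2 and COX3, both higher. COX1, the core subunit of cytochrome c oxidase, had 4200, 4110 and 4580 CPM in Runx3 +/WRPW and 4880 and 4340 CPM in Runx3 +/+, which overlap (log2 -0.10, adjusted p = 0.479). ND3, ND4L, COX2, COX3, ATP6 and ATP8 stood at 10.5 CPM or below in every library, and how reads mapping to several places were treated is not given in the sources used here. The tested ones among these had log2 fold changes of 0.29 to 1.64, and the more abundant mitochondrial genes had -0.14 to 0.02.

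**Figure D5:**
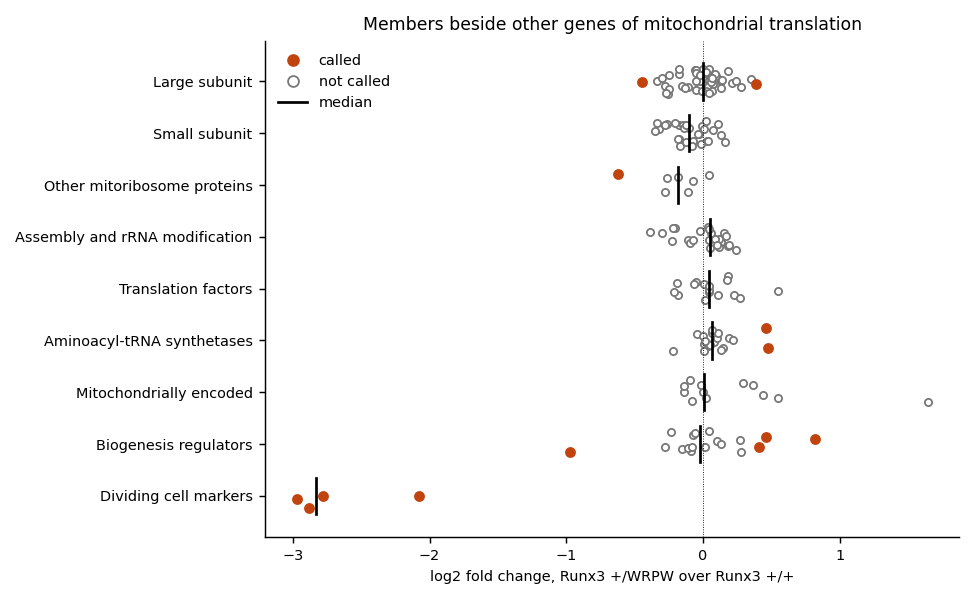
Fitted log2 fold change (x axis, Runx3 +/WRPW over Runx3 +/+) of each tested gene in the large subunit, the small subunit, the 6 lists of related genes and the markers of dividing cells, with filled points for called genes and black bars at the medians. The small subunit median lies at -0.10 and the large subunit median at 0.00, and the 4 markers of dividing cells lie far lower, with Mki67 at -2.97.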

How the data were processed

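RNA-seq of sorted mature CD8 single-positive thymocytes was analysed from 5 libraries, grouped by the genotype label. Each library had its own deposited table of raw read counts for named genes, which the authors had not normalized. The submitters' processing notes name HISAT2 2.2.1 for mm10, featureCounts 2.0.8, cutadapt 4.0 and edgeR 3.36.0, with no role or settings. Whether strand was used, and what became of reads with several matches, is not given in the sources used here. Samples were assigned by their records, because 1 column header (Runx3 +/+ library 2) carries another replicate number, 3, and another (Runx3 +/WRPW library 2) only an aligner's name.

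Counts were fitted across all genes with edgeR 4.0.16 in R 4.3.3 (TMM, filterByExpr with a minimum count of 10, glmQLFit, glmQLFTest), with both genotypes and no covariate, and calls needed an adjusted p (Benjamini-Hochberg) under 0.05. The common biological coefficient of variation was 0.211. CPM values use TMM factors (0.981 to 1.034), and 3 counts, the floor, correspond to 0.0686 to 0.191 CPM. No pair of libraries agreed within sampling noise (smallest chi-square per gene 14.2). The steps were tested on simulated data. Alternatives were DESeq2 1.42.0, limma 3.58.1 (voom), other scalings, other filters, a replicate block and leaving out each library.

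Exon lengths, strands and overlaps came from GENCODE M21, and gene coordinates and start windows from RefSeq, both on GRCm38. The genes and lists were chosen with earlier results of these data known, and the places and bacterial counterparts of the proteins were assigned from general knowledge after values were seen. Named by rule were Runx3, called genes, the 5 highest and 3 lowest genes per length and, in each subunit, the 3 largest differences not called, and up to 4 called genes per related list. Genes named outside it were chosen after their values were seen. Of 101 related genes 1 had no row of that symbol, and the marker Trac likewise.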

Additional observations from a re-analysis of the deposited data

How the results depend on the processing

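The small subunit had 0 genes called under every alternative run, and the genes called, and those named for the size of their difference, kept their direction. The Mrpl and Mrps genes called, 2 in the main edgeR fit and both of the large subunit, were 4 with DESeq2, 1 with no filter on low counts, 0 with the replicate block and 0 without any 1 library. Over all genes the count was 1855 in the main edgeR fit and 2705 with DESeq2. It was 1079 with no filter, 754 with the replicate block and 277 to 1431 without 1 library. The related lists had 11 called with DESeq2, 2 with the replicate block and 1 to 4 without 1 library. The median log2 fold change of the large subunit was 0.0277 with upper-quartile factors, 0.0358 with the replicate block and -0.0291 to 0.0391 without 1 library. That of the small subunit was -0.0728 with upper-quartile factors and -0.1441 to -0.0492 without 1 library. The median of all genes tested was 0.02, but 0.70 with no filter and 0.14 and 0.15 without a Runx3 +/+ library, where more genes were tested and the lone library was assumed to vary like the other genotype. With CPM by total count the ratio of summed levels was 1.00 for the large and 0.964 for the small subunit. The cause of these shifts was not tested. The replicate numbers name libraries only, with correlations of same-numbered deviations of -0.0492 and 0.00247.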
